A study of Mus musculus with 12 samples.

Results

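Loss of the transcription factor IKAROS was examined in fetal erythroid cells cultured with a NOTCH ligand, by comparing 3 IkNull/OP9-DL1 libraries with 3 IkWT/OP9-DL1 libraries out of 12 RNA-sequencing libraries in the series. The 6 libraries were chosen by their labelled genotype and stroma, and the other 6, with the same 2 genotypes on OP9 stroma lacking the ligand, served only to ask whether the genotype difference was the same there. Cells came from fetal livers of e14.5 mouse embryos of strain CD1, were kept for 48 h with erythropoietin at 2 U/mL on a stromal layer, and were then isolated through the surface antigen Ter119, carried by maturing erythroid cells. IkNull embryos are homozygous for a deletion of the last translated exon of Ikzf1, with no IKAROS protein in any cell of the embryo, and IkWT embryos were wild-type littermates. DELTA-like 1, which activates NOTCH receptors on neighbouring cells, is displayed by the OP9-DL1 stroma, and both groups were exposed to it, so that no library of the comparison lacks the ligand. The libraries are IkNull replicates 1, 2 and 3 and IkWT replicates 1, 3 and 4, described as biological replicates. The p-values rest on the spread between them, moderated over all genes as given below.

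IKAROS is a zinc-finger protein of blood cells that binds DNA next to genes it represses or activates, and it brings the nucleosome remodelling and deacetylase complex NuRD and other chromatin complexes to them. NOTCH receptors respond to a ligand on a neighbouring cell by releasing an intracellular domain, which enters the nucleus and turns RBPJ, with Mastermind coactivators, into an activator of genes such as Hes1. In the fetal liver most cells belong to the red cell lineage, and IKAROS has been studied there for its part in silencing embryonic and fetal globin genes.

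The values are normalized counts, meaning reads per gene divided by a size factor that scales each library to a common level. Recovered reads numbered 22590400 and 19889600 in IkNull/OP9-DL1 replicates 1 and 2 and from 25778900 to 31624500 per IkWT/OP9-DL1 library. In IkNull/OP9-DL1 replicate 3, where the recovery could not be checked, an estimate gave 22978100. Totals of normalized counts were 23145000 to 30026600 in IkNull/OP9-DL1 and 18293200 to 28404100 in IkWT/OP9-DL1. Slc4a1, the band 3 anion exchanger of the red cell membrane, had 365463, 344835 and 271025 in IkNull/OP9-DL1, against 421884, 238258 and 295797 in IkWT/OP9-DL1, and this defining erythroid gene was thus abundant in every library. Globin transcripts made up 15.5 to 23.99% of normalized counts in IkNull/OP9-DL1 and 12.6 to 14.3% in IkWT/OP9-DL1, with no overlap between the groups. Genes whose normalized counts averaged 5 or more in the 6 libraries were tested with limma on log2(normalized count + 1), and a gene was called where its Benjamini-Hochberg adjusted p was under 0.05 and its log2 fold change was at least 0.8 in size. Fold changes are IkNull over IkWT on that scale with their standard error, and understate the change of low genes. In the fit, each gene's variance is drawn toward a trend of variance with abundance over all genes. The standard errors and p-values thus do not rest on a gene's own libraries alone.

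The libraries differed among themselves as well as by genotype. Principal component 1 (60.8% of variance) separated the genotypes, and component 2 (19.9%) had replicate 1 of both genotypes apart from the other libraries. IkNull replicate 1 also differed in sex chromosome genes. Xist, the RNA of the inactive X chromosome, had 15.6, 15220 and 15225 in IkNull/OP9-DL1, against 19128, 4.63 and 12577 in IkWT/OP9-DL1, and Ddx3y, on the Y chromosome, had 2410, 6.04 and 16.1 in IkNull/OP9-DL1, against 4.13, 1591 and 10.7 in IkWT/OP9-DL1. IkNull replicate 1 and IkWT replicate 3 thus carried Y transcripts and little Xist, and the other 4 libraries the reverse. None of the 5 sex chromosome genes tested was called.

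Of 13745 genes tested, 786 (5.72%) were overexpressed and 306 (2.23%) were downregulated in IkNull/OP9-DL1 cells. The calls together made up 7.94% of genes, and 72.0% of them were higher. In 34.2% of all genes the groups did not overlap. At an unadjusted p under 0.05 the counts were 2391 and 1678. The rises were also larger: 497 overexpressed genes but 66 downregulated genes differed by at least 2 on the log2 scale, and 94 but 6 by at least 4. The share called differed with the level of the genes. Of the 1568 genes with an IkWT/OP9-DL1 mean under 10, 176 (11.2%) were overexpressed and 0 downregulated, where a fall has little room to be called. Of the 2942 genes with an IkWT/OP9-DL1 mean of 1000 or more, 76 (2.58%) were overexpressed and 131 (4.45%) downregulated. Over all genes tested, the log2 fold changes had a median of 0.03. When the libraries were scaled to equal totals this median was −0.26, and the counts were 485 higher and 711 lower, with 40.6% of called genes higher, so that the split between rises and falls depends on the scaling. Leaving out IkNull replicate 2 left 171 higher and 52 lower genes, and leaving out IkNull replicate 1 gave 1757 and 1033. Without IkNull replicate 3 the counts were 402 and 116, and without IkWT replicates 1, 3 and 4 they were 480 and 112, 547 and 170, and 271 and 53. In every fit that left out 1 library, 160 genes were called higher and 43 lower.

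**Figure D1:**
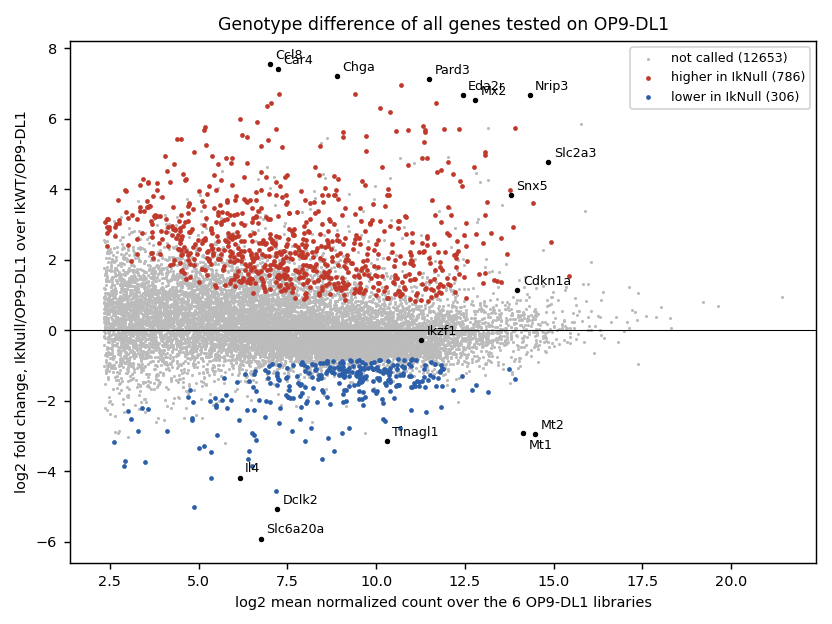
Log2 fold change of IkNull/OP9-DL1 over IkWT/OP9-DL1 (vertical axis) against the log2 mean normalized count over the 6 libraries (horizontal axis) for the 13745 genes tested, with 786 genes called higher in red, 306 called lower in blue, the rest in grey and the labelled genes in black. The red genes reach farther from 0 than the blue ones and lie mostly at low and middle abundance, while Mt1 and Mt2 are lower genes of high abundance.

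The rise with the smallest adjusted p of the genes named here was that of Pard3, the scaffold protein of the PAR complex that sets apart the poles of a cell (chr8:127063893-127612286, GRCm38, GENCODE vM21, as for the positions below). Pard3 had 5845, 5619 and 5696 normalized counts in the IkNull/OP9-DL1 libraries, against 37.1, 35.9 and 47.7 in the IkWT/OP9-DL1 libraries. The 3 IkNull libraries were nearly alike and lay far above the IkWT libraries (log2 fold change 7.13 ± 0.20, limma adjusted p = 3.55e-06), with a ratio of means of 142. Of 13 PAR polarity genes tested, 2 (15.4%) were overexpressed and 1 (7.69%) was downregulated, beside 5.72% and 2.23% of all genes. Cdc42, the small GTPase that recruits the PAR complex, was also overexpressed at 17056, 18329 and 15310 normalized counts in IkNull/OP9-DL1, against 6985, 5907 and 6856 in IkWT/OP9-DL1 (log2 fold change 1.36 ± 0.22, limma adjusted p = 0.012). Llgl1, a basolateral polarity protein that opposes the PAR complex, was downregulated at 511, 319 and 542 in IkNull/OP9-DL1, against 1149, 910.5 and 974 in IkWT/OP9-DL1 (log2 fold change −1.17 ± 0.25, limma adjusted p = 0.0303), and its exons overlap those of Flii on the other strand. The call of Pard3 held whichever library was left out, but that of Cdc42 was lost without IkNull replicate 2 or IkWT replicate 4, and that of Llgl1 when any library but IkNull replicate 1 was left out. The remaining 10 polarity genes were not called, among them the partners Pard6a, Pard6b and Prkci with log2 fold changes of −0.40, −0.81 and 0.30.

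Other genes that were almost silent in IkWT/OP9-DL1 cells were abundant in IkNull/OP9-DL1 cells. Chga, the secretory granule protein chromogranin A of neuroendocrine cells (chr12:102554969-102565028), had 499.6, 1196 and 1149 in IkNull/OP9-DL1, against 3.09, 4.63 and 8.23 in IkWT/OP9-DL1 with no IkWT library near the IkNull libraries (log2 fold change 7.21 ± 0.45, limma adjusted p = 0.000536). Creb3l1, a membrane-bound transcription factor of the endoplasmic reticulum, had 5212, 3439 and 1305 in IkNull/OP9-DL1, against 28.9, 17.9 and 20.6 in IkWT/OP9-DL1, widely apart between the groups (log2 fold change 6.96 ± 0.48, limma adjusted p = 0.000536). The other 3 genes of its family tested, Creb3, Creb3l2 and Creb3l3, were not called, so that 1 of 4 (25%) was higher, beside 5.72% of all genes. Eda2r, the receptor for the A2 form of ectodysplasin, had 6769, 15068 and 11084 in IkNull/OP9-DL1, against 51.6, 118 and 173 in IkWT/OP9-DL1 (log2 fold change 6.66 ± 0.46, limma adjusted p = 0.000536). Osr2, a zinc-finger factor of limb and palate development, had 407, 311 and 65.5 in IkNull/OP9-DL1, against 2.06, 0.578 and 1.65 in IkWT/OP9-DL1, with IkNull replicate 3 well below the other IkNull libraries but not near the IkWT level (log2 fold change 6.45 ± 0.70, limma adjusted p = 0.00243).

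The largest fitted fold changes belonged to genes with next to no reads in IkWT/OP9-DL1. Ccl8 had 86.9, 335 and 343 normalized counts in the IkNull/OP9-DL1 libraries, against 0, 0.578 and 0 in the IkWT/OP9-DL1 libraries, which is 1 read over 3 libraries. Ccl8, a chemokine that draws monocytes and other leukocytes, was thus higher in all 3 IkNull libraries (log2 fold change 7.54 ± 0.61, limma adjusted p = 0.000805), with a ratio of means of 1323 whose 95% counting interval ran from 238 to 52275. Car4, a carbonic anhydrase anchored in the cell membrane, likewise had 1 read over the IkWT libraries, with 53.2, 480.1 and 375 normalized counts in IkNull/OP9-DL1 (log2 fold change 7.40 ± 0.82, limma adjusted p = 0.00265), and its ratio of means was 880.2 with an interval from 158 to 34767. The intervals cover counting error only. Of 7 carbonic anhydrases tested Car4 was the 1 gene called (14.3%, beside 5.72% of all genes called higher). Car2, the abundant enzyme of red cells, had 89488, 86267 and 68465 in IkNull/OP9-DL1, against 104641, 63671 and 79722 in IkWT/OP9-DL1, overlapping between the groups. Actl6b, the neuronal actin-related subunit of the BAF remodelling complex, had 0 reads in each IkWT library and 41.5, 42.3 and 15.1 normalized counts in IkNull/OP9-DL1, at least 40.7-fold higher against a floor of 3 reads over the group (limma adjusted p = 0.0034).

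Some rises also gave the largest gains in normalized counts among the genes called without overlap of the groups. Slc2a3, the glucose transporter GLUT3 of neurons and white blood cells, had 99270, 43401 and 29301 in IkNull/OP9-DL1, against 2992, 1400 and 1472 in IkWT/OP9-DL1. No IkWT library came near an IkNull library, and replicate 1 was the highest within each group (log2 fold change 4.77 ± 0.48, limma adjusted p = 0.00176). Nrip3, a nuclear receptor interacting protein, had 48935, 40458 and 32565 in IkNull/OP9-DL1, against 908, 345 and 192 in IkWT/OP9-DL1, among the largest in both fold and number (log2 fold change 6.67 ± 0.50, limma adjusted p = 0.000551). Snx5, a sorting nexin of the endosomal membrane, had 30301, 22849 and 27185 in IkNull/OP9-DL1, against 1479, 2280 and 1908 in IkWT/OP9-DL1, with little spread within either group (log2 fold change 3.84 ± 0.24, limma adjusted p = 0.000536), and its exons overlap those of Mgme1 on the other strand, so that reads of the 2 genes may not be told apart. E330020D12Rik is labelled protein-coding in the deposited data and a processed transcript in GENCODE vM21. It had 12666, 6245 and 772 in IkNull/OP9-DL1, against 140.3, 18.5 and 32.1 in IkWT/OP9-DL1, with IkNull replicate 3 far below the other IkNull libraries (log2 fold change 6.45 ± 1.05, limma adjusted p = 0.0126), and its call was lost without IkNull replicate 2.

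**Figure D2:**
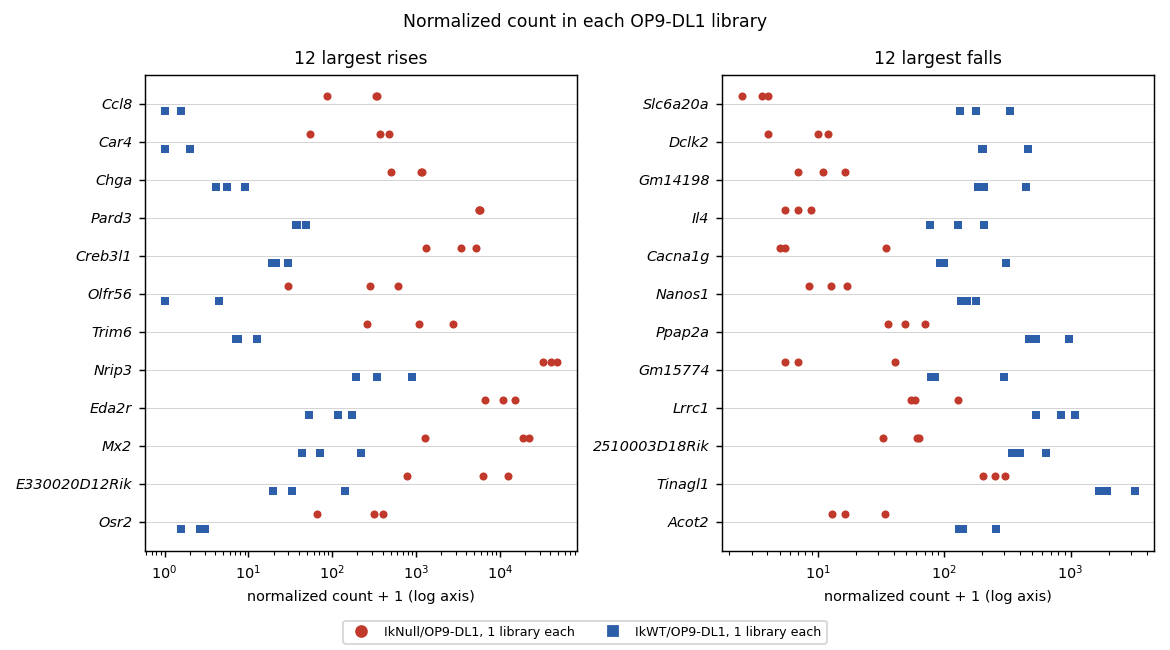
Normalized count plus 1 on a log axis in each OP9-DL1 library for the 12 largest rises (left) and the 12 largest falls (right) among called genes averaging 50 or more, with IkNull/OP9-DL1 libraries as red circles and IkWT/OP9-DL1 libraries as blue squares below them. The groups do not overlap in any of the 24 genes, which the choice of genes required, and the red circles are tightest for Pard3 and widest for E330020D12Rik, Mx2 and Olfr56.

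Among the genes called lower without overlap of the groups, the metallothioneins gave the largest losses in normalized counts. These small cysteine-rich proteins bind zinc and copper, and their genes are switched on by the zinc-sensing factor MTF1 at metal response elements with the core TGCACNC or TGCGCNC. Mt1 and Mt2 lie side by side, and both were downregulated. The bases before their starts are shown because both genes fell together and share this element, with matches on either strand in capitals (RefSeq, GRCm38.p6, plus strand, chr8:94178989-94179088 for Mt1 and chr8:94172388-94172617 for Mt2).
Mt1: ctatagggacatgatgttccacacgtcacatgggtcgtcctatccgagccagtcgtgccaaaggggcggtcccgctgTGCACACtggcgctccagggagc
Mt2: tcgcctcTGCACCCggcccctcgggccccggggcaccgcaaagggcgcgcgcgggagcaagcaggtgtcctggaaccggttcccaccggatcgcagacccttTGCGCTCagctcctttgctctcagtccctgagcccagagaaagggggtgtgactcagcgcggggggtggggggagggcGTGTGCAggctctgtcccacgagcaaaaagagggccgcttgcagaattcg
The Mt1 stretch holds 1 match that begins 23 bases before the start, and the Mt2 stretch holds 3 that begin 223, 128 and 50 bases before the start, in stretches of unequal length. In the 300 bases from 250 before to 50 after the start, Mt1 holds 3 matches and Mt2 holds 4, and either form of the element occurs in 28.2% of 27025 RefSeq genes, so that a match by itself is common. Of the 9 metallothionein and zinc transport genes with a window, 6 held it (66.7%). Among all downregulated genes with a window the share was 47%. The genes tested, with windows for 75.3% of them, also held the element more often than the RefSeq genes. The 28.2% is thus not the background of genes expressed in these cells. Whether the zinc genes differ from the downregulated genes in this share was not tested.

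Mt1 had 5313, 3296 and 4354 normalized counts in the IkNull/OP9-DL1 libraries, against 35322, 27239 and 33774 in the IkWT/OP9-DL1 libraries. Mt2 had 7026, 3122 and 6441 normalized counts in the IkNull/OP9-DL1 libraries, against 44300, 35407 and 40790 in the IkWT/OP9-DL1 libraries. All 3 IkNull libraries lay far below the IkWT libraries for both genes (log2 fold change −2.91 ± 0.26, limma adjusted p = 0.00126 for Mt1, and log2 fold change −2.94 ± 0.34, limma adjusted p = 0.00319 for Mt2), and the calls held in every fit that left out 1 library. The exons of Mt2 overlap those of the antisense gene Gm45774. Mtf1 itself was downregulated at 1021, 805 and 921 in IkNull/OP9-DL1, against 2043, 1504 and 1518 in IkWT/OP9-DL1 (log2 fold change −0.87 ± 0.21, limma adjusted p = 0.0422), and so was Slc39a8, a zinc importer of the plasma membrane, at 1459, 990.3 and 1587 in IkNull/OP9-DL1, against 2432, 2611 and 2636 in IkWT/OP9-DL1 (log2 fold change −0.96 ± 0.23, limma adjusted p = 0.0404). Both of these calls were lost when any library other than IkNull replicate 1 was left out, and groups did not overlap in either gene. In all, 0 of 11 genes of zinc handling were higher and 4 were lower (36.4%, beside 2.23% of all genes). The exporters Slc30a1 and Slc30a10 had log2 fold changes of 0.39 and 0.69 without a call.

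The largest fold loss was that of Slc6a20a, a proline transporter (chr9:123634770-123678885). Slc6a20a had 2.6, 1.51 and 3.02 normalized counts in the IkNull/OP9-DL1 libraries, against 330.1, 178 and 132 in the IkWT/OP9-DL1 libraries, and Slc6a20a was thus nearly absent from every IkNull library (log2 fold change −5.91 ± 0.45, limma adjusted p = 0.000611), although its exons overlap those of Ccr9 and 2 noncoding genes on the other strand. Dclk2, a microtubule-binding kinase, had 9.08, 3.02 and 11.1 in IkNull/OP9-DL1, against 463, 199 and 202 in IkWT/OP9-DL1 (log2 fold change −5.08 ± 0.53, limma adjusted p = 0.00211). Il4, the cytokine of type 2 immunity made by mast cells, basophils and T cells, had 7.79, 4.53 and 6.04 in IkNull/OP9-DL1, against 206, 75.8 and 128 in IkWT/OP9-DL1, far apart between the groups (log2 fold change −4.18 ± 0.45, limma adjusted p = 0.00246). Tinagl1, a matrix protein related to tubulointerstitial nephritis antigen, had 252, 300.4 and 200.4 in IkNull/OP9-DL1, against 3220, 1687 and 1940 in IkWT/OP9-DL1 (log2 fold change −3.14 ± 0.29, limma adjusted p = 0.00133), and Nanos1, an RNA-binding regulator of translation, had 11.7, 7.55 and 16.1 in IkNull/OP9-DL1, against 149.6, 136 and 179 in IkWT/OP9-DL1 (log2 fold change −3.65 ± 0.37, limma adjusted p = 0.00176). These calls held whichever library was left out. Cacna1g, a T-type calcium channel, had 33.7, 4.53 and 4.03 in IkNull/OP9-DL1, against 307, 98.3 and 92.2 in IkWT/OP9-DL1, where IkNull replicate 1 was several-fold above the other IkNull libraries (log2 fold change −3.84 ± 0.80, limma adjusted p = 0.0274), and this call was lost in 4 of the 6 fits that left out 1 library.

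The remaining named falls were Gm14198, Ppap2a, Gm15774, Lrrc1, 2510003D18Rik and Acot2, with log2 fold changes of −4.56, −3.65, −3.42, −3.41, −3.15 and −3.11. Ppap2a encodes a lipid phosphate phosphatase and Acot2 a mitochondrial acyl-CoA thioesterase. Gm14198, Gm15774, 2510003D18Rik and Ppap2a share exon sequence with a gene on the other strand (Zfp341, Eef2k, Asb17 and Mtrex), and the strand setting of the counting is not given in the sources used here. Gm15774 was lost as a call in every fit without 1 of the libraries except IkNull replicate 1.

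Further large losses in normalized counts among such called genes were those of abundant genes with other roles. Dek, a chromatin-bound oncoprotein, had 9852, 7237 and 9493 in IkNull/OP9-DL1, against 16101, 20010 and 19927 in IkWT/OP9-DL1 (log2 fold change −1.08 ± 0.24, limma adjusted p = 0.0343), Tcea1, the elongation factor TFIIS of RNA polymerase II, had 4765, 2375 and 5647 in IkNull/OP9-DL1, against 18925, 10069 and 12420 in IkWT/OP9-DL1 (log2 fold change −1.74 ± 0.38, limma adjusted p = 0.0313), and Nfe2l1, a factor of proteasome and stress genes, had 2588, 1590 and 2150 in IkNull/OP9-DL1, against 10017, 4876 and 6244 in IkWT/OP9-DL1 (log2 fold change −1.70 ± 0.31, limma adjusted p = 0.0172). In each of these the highest IkNull library stayed below the lowest IkWT library. Exons of Dek overlap those of Kdm1b on the other strand, and exons of Tcea1 those of Gm37988 on the same strand. Pabpc4, a poly(A)-binding protein, Cyb5r1, a cytochrome b5 reductase, Crlf3, a cytokine receptor-like factor, and H1f0, the linker histone of differentiated cells, fell by 1.39, 1.69, 1.31 and 2.19 on the log2 scale. Of 16 amino acid carriers tested, 0 were higher and 2 were lower (12.5%, beside 2.23% of all genes), Slc6a20a and the glutamine carrier Slc1a5. Slc1a5 had 5531, 2027 and 4021 in IkNull/OP9-DL1, against 12771, 7976 and 10932 in IkWT/OP9-DL1 (log2 fold change −1.54 ± 0.38, limma adjusted p = 0.0447). All calls in this paragraph other than that of Slc6a20a were lost without IkNull replicate 2 and without IkWT replicate 4.

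Genes that respond to interferon gave the most overexpressed members of the lists described. Interferons bind surface receptors, and the signal from these activates transcription through the interferon-stimulated response element, GAAA followed after any 2 bases by GAAA, before antiviral genes. Of 64 interferon-stimulated genes tested, 28 were overexpressed and 0 downregulated in IkNull/OP9-DL1, against 5.72% of all genes higher, and the median log2 fold change was 3.38. In 40 of the 64 genes every IkNull library lay above every IkWT library, where 17.2% of all genes did so. A pair of promoters that carry the element, on either strand in capitals, is shown because both genes are called members of the list, before Ifit3, a member of the antiviral IFIT family, and Irgm1, a GTPase of autophagy against intracellular bacteria (RefSeq, GRCm38.p6, chr19:34583364-34583528 on the plus strand and chr11:48871421-48871520 on the minus strand).
Ifit3: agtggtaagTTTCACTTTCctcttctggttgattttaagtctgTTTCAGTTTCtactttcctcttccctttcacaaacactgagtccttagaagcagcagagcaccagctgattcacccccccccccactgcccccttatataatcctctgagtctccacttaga
Irgm1: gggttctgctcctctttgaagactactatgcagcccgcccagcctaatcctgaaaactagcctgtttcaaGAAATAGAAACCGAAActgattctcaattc
The Ifit3 stretch holds 2 matches beginning 156 and 122 bases before the start, and the Irgm1 stretch 2 overlapping ones beginning 30 and 24 bases before it. The element occurs in 3.99% of the 27025 RefSeq genes with a window. Windows were at hand for 74.2% of the interferon list, too few for a share over the list to be read, so that none is given.

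The 3 IkNull libraries differed widely in these genes. Mx2 had 1270, 18736 and 22459 normalized counts in the IkNull/OP9-DL1 libraries, against 42.3, 218 and 69.9 in the IkWT/OP9-DL1 libraries. Mx2, of the interferon-induced Mx GTPase family, was far higher in IkNull replicates 2 and 3 than in replicate 1, and replicate 1 also lay above the IkWT libraries (log2 fold change 6.53 ± 1.06, limma adjusted p = 0.0126). GENCODE vM21 lists Mx2 as a polymorphic pseudogene. Ly6e had 4883, 11528 and 13654 normalized counts in the IkNull/OP9-DL1 libraries, against 283, 778 and 535 in the IkWT/OP9-DL1 libraries. Ly6e, a surface protein that restricts coronaviruses, lay well above the IkWT libraries in every IkNull library (log2 fold change 4.22 ± 0.47, limma adjusted p = 0.00265) and was called in every fit that left out 1 library. Ifit3 had 79.2, 225 and 291 in IkNull/OP9-DL1, against 8.25, 26.0 and 14.8 in IkWT/OP9-DL1 (log2 fold change 3.46 ± 0.58, limma adjusted p = 0.0135), and Irgm1 had 6503, 33457 and 39579 in IkNull/OP9-DL1, against 1541, 4884 and 2593 in IkWT/OP9-DL1, where IkNull replicate 1 lay only a little above IkWT replicate 3 (log2 fold change 2.93 ± 0.70, limma adjusted p = 0.0409).

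Over the whole list, IkNull replicate 1 was the lowest IkNull library in all 64 interferon genes, IkNull replicates 2 and 3 were both above every IkWT library in 62, and replicate 1 was above every IkWT library in 40. The IkWT libraries were not even either, since IkWT replicate 3 was the highest of them in 59 genes. The median over the 64 genes, relative to the IkWT mean, was 1.17 in IkNull replicate 1, 4.13 in replicate 2 and 4.73 in replicate 3, and −0.82, 1.00 and −0.12 in IkWT replicates 1, 3 and 4. IkNull replicate 1 was the library with Y transcripts among the IkNull libraries, and IkWT replicate 3 that among the IkWT libraries, and the part of sex in these values was not tested. The count of 28 overexpressed genes was 62, 1 and 9 without IkNull replicate 1, 2 and 3, and 7, 29 and 10 without IkWT replicate 1, 3 and 4. Of the 28 called, 24 had IkNull libraries more than 4-fold apart, and of the other 758 overexpressed genes 108 did.

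**Figure D3:**
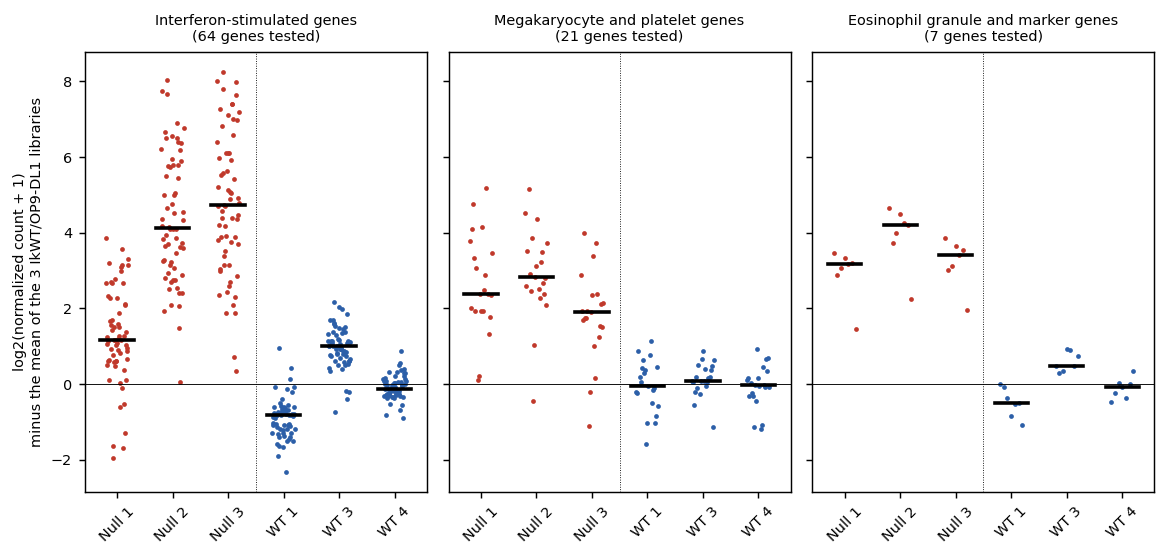
Level of each tested gene of 3 lists in each OP9-DL1 library (log2 of normalized count plus 1, minus the mean of the 3 IkWT/OP9-DL1 libraries), with IkNull libraries in red to the left and IkWT libraries in blue to the right, 1 point a gene and a bar at the median. The interferon bars stand at 1.17, 4.13 and 4.73 in IkNull replicates 1, 2 and 3, while those of the megakaryocyte genes stand at 2.39, 2.82 and 1.92 and those of the eosinophil genes at 3.18, 4.20 and 3.42.

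Other interferon-linked genes were among the largest gains in normalized counts of the genes called. Rnf213, a giant ubiquitin ligase, had 8195, 50894 and 61992 in IkNull/OP9-DL1, against 961, 6355 and 2281 in IkWT/OP9-DL1 (log2 fold change 3.62 ± 0.87, limma adjusted p = 0.0425), Lgals9, the lectin galectin-9, had 5350, 39816 and 45344 in IkNull/OP9-DL1, against 152, 974 and 416 in IkWT/OP9-DL1 (log2 fold change 5.75 ± 0.90, limma adjusted p = 0.0111), and Parp14, a mono-ADP-ribosyl transferase, had 4197, 36809 and 38678 in IkNull/OP9-DL1, against 746, 2169 and 933 in IkWT/OP9-DL1 (log2 fold change 3.98 ± 0.82, limma adjusted p = 0.0265). In each, IkNull replicate 1 stood close to the highest IkWT library or a few-fold above it, and replicates 2 and 3 far above. Uba7, the enzyme that activates the ubiquitin-like protein ISG15, had 21677, 76442 and 65057 in IkNull/OP9-DL1, against 8684, 9811 and 7088 in IkWT/OP9-DL1 (log2 fold change 2.49 ± 0.47, limma adjusted p = 0.0195), and Ube2l6, its conjugating enzyme, had 46049, 94437 and 60153 in IkNull/OP9-DL1, against 18484, 22911 and 25105 in IkWT/OP9-DL1 (log2 fold change 1.54 ± 0.35, limma adjusted p = 0.036). Isg15 itself had 17091, 130666 and 187990 in IkNull/OP9-DL1, against 3437, 14458 and 7621 in IkWT/OP9-DL1 and did not pass (limma adjusted p = 0.0549). The calls of Rnf213, Lgals9, Parp14, Uba7 and Ube2l6 were lost without IkNull replicate 2, and those other than Lgals9 also without IkNull replicate 3 or IkWT replicate 1 or 4. Olfr56 and Trim6 also rose, by 6.71 ± 1.11 and 6.70 ± 0.75, but the exons of the olfactory receptor gene Olfr56 lie on those of the interferon gene Ifi47 on the same strand. The gene listed as Gbp6, with a log2 fold change of 5.20, is named Gm43302 in GENCODE vM21 and shares exons there with Gbp10 and Gbp6. The calls of Olfr56 and of this gene were lost without IkNull replicate 2, and that of Trim6 held whichever library was left out. Exons of Parp14 and Uba7 overlap those of Gm49730 and Gm20661 on the same strand, and exons of Rnf213 those of A930037H05Rik on the other.

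Of 20 genes of MHC class I presentation, which load peptides onto surface molecules for T cells, 5 were overexpressed and 0 downregulated. The share higher was 25%, beside 5.72% of all genes, and the median was 1.99. H2-K1, a class I heavy chain, had 1004, 3229 and 4181 in IkNull/OP9-DL1, against 167, 533 and 351 in IkWT/OP9-DL1 (log2 fold change 2.92 ± 0.58, limma adjusted p = 0.0234), and Tap1, a chain of the peptide transporter, had 324, 2015 and 3109 in IkNull/OP9-DL1, against 52.6, 224 and 97.1 in IkWT/OP9-DL1 (log2 fold change 3.58 ± 0.83, limma adjusted p = 0.0381). Tapbp, which holds the transporter to the heavy chain, had 2750, 14069 and 15309 in IkNull/OP9-DL1, against 668, 1753 and 918 in IkWT/OP9-DL1 (log2 fold change 3.03 ± 0.65, limma adjusted p = 0.0303). In all 3 genes IkNull replicate 1 was the lowest of the IkNull libraries yet above the IkWT libraries. Exons of Tap1 overlap those of Psmb9 on the other strand, and exons of Tapbp those of Zbtb22. B2m, the light chain, had 5131, 16896 and 20860 in IkNull/OP9-DL1, against 2093, 4592 and 2789 in IkWT/OP9-DL1 and did not pass (limma adjusted p = 0.0536). The count was 17 without IkNull replicate 1, 3 without IkWT replicate 3 and 0 without any of the other libraries. H2 genes resemble each other, and reads of near-identical genes such as these, the Gbp, Oas1 and Ear genes and the globins could be split between them by the counting.

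Some chemokine genes were overexpressed. Of 24 chemokine and receptor genes tested, 5 were overexpressed and 0 downregulated (median 1.31), a share of 20.8% against 5.72% of all genes called higher, namely Ccl8, Ccl6, Ccl9, Ccl12 and Cxcr7. Ccl6, a macrophage and eosinophil chemokine, had 359, 1276 and 807 in IkNull/OP9-DL1, against 61.9, 134 and 83.1 in IkWT/OP9-DL1 (log2 fold change 3.01 ± 0.48, limma adjusted p = 0.012), and Cxcr7, a scavenger receptor for CXCL12, had 2176, 4475 and 2966 in IkNull/OP9-DL1, against 1069, 448 and 965 in IkWT/OP9-DL1 (log2 fold change 1.99 ± 0.39, limma adjusted p = 0.0212). The IkNull libraries lay above the IkWT libraries in both. Cxcl1, a neutrophil chemokine, had 41.5, 31.7 and 81.6 in IkNull/OP9-DL1, against 28.9, 82.7 and 46.9 in IkWT/OP9-DL1, fully overlapping (log2 fold change −0.02 ± 0.50, limma adjusted p = 0.985), and Il6, the inflammatory cytokine, had 24.7, 36.2 and 77.6 in IkNull/OP9-DL1, against 9.28, 20.2 and 13.2 in IkWT/OP9-DL1 without a call (limma adjusted p = 0.1). The count was 11 without IkNull replicate 1, 1, that of Ccl8, without IkNull replicate 2, 2 without IkNull replicate 3 or IkWT replicate 4, and 3 without IkWT replicate 1.

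Genes of megakaryocytes, the platelet-forming cells that share a progenitor with the red cell lineage, were overexpressed with less spread among the IkNull libraries. Of 21 tested, 14 (66.7%, beside 5.72% of all genes) were overexpressed and 0 downregulated, and the median was 2.38. Itgb3, the integrin chain of the platelet fibrinogen receptor, had 2307, 3025 and 1353 in IkNull/OP9-DL1, against 97.0, 72.9 and 85.6 in IkWT/OP9-DL1, and Pf4, the platelet chemokine, had 855, 1415 and 455 in IkNull/OP9-DL1, against 52.6, 64.8 and 65.8 in IkWT/OP9-DL1 (log2 fold change 4.63 ± 0.31, limma adjusted p = 0.000536 for Itgb3, and log2 fold change 3.73 ± 0.39, limma adjusted p = 0.0022 for Pf4). IkNull replicate 3 was the lowest IkNull library in both, but still several-fold above every IkWT library. Treml1, a receptor of platelet granules, had 93.4, 107 and 54.4 in IkNull/OP9-DL1, against 4.13, 4.63 and 4.11 in IkWT/OP9-DL1 (log2 fold change 3.97 ± 0.41, limma adjusted p = 0.00203), and Selp, the adhesion molecule P-selectin, had 31.1, 39.3 and 56.4 in IkNull/OP9-DL1, against 2.06, 3.47 and 4.94 in IkWT/OP9-DL1 (log2 fold change 3.28 ± 0.47, limma adjusted p = 0.0076). Itga2b, Thbs1, F2rl2, Gp1ba, Gp1bb, Gp5, Ppbp, Plek, Rab27b and P2rx1 made up the rest of the 14. Gp9, another chain of the platelet von Willebrand receptor, had 109, 74.0 and 46.3 in IkNull/OP9-DL1, against 123, 83.9 and 98.7 in IkWT/OP9-DL1, and Vwf, its ligand, had 628, 1105 and 468 in IkNull/OP9-DL1, against 705, 567 and 394 in IkWT/OP9-DL1, and neither was called. The summed level of the 22 listed genes was 6253 to 15865 in IkNull/OP9-DL1 and 1571 to 2018 in IkWT/OP9-DL1. The count was 4 without IkNull replicate 2 and 7 without IkWT replicate 4. Megakaryocyte genes in Ter119+ cells and megakaryocytes among the cells cannot be told apart in bulk RNA, just as fewer cells of a type and less RNA per cell cannot.

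Genes of eosinophils, granulocytes armed with toxic granule proteins, had the highest median of the lists. Of 7 tested, 6 (85.7%, beside 5.72% of all genes) were overexpressed and 0 downregulated, with a median of 3.62. Prg2 had 2581, 4606 and 2807 normalized counts in the IkNull/OP9-DL1 libraries, against 332, 431 and 295 in the IkWT/OP9-DL1 libraries. Epx had 572, 1310 and 752 normalized counts in the IkNull/OP9-DL1 libraries, against 51.6, 71.1 and 36.2 in the IkWT/OP9-DL1 libraries. Prg2, the major basic protein of the granule, and Epx, the eosinophil peroxidase, were separated by several fold between the groups (log2 fold change 3.20 ± 0.27, limma adjusted p = 0.00105 for Prg2, and log2 fold change 3.99 ± 0.37, limma adjusted p = 0.0014 for Epx). Prg3 and the ribonucleases Ear1, Ear2 and Ear6 rose by 3.40, 3.82, 3.62 and 3.65, and Siglec5, a surface lectin, had 40.2, 71.0 and 57.4 in IkNull/OP9-DL1, against 6.19, 24.3 and 18.1 in IkWT/OP9-DL1 (limma adjusted p = 0.064). The summed level of the 10 listed genes was 4325 to 8329 in IkNull/OP9-DL1 and 459 to 727 in IkWT/OP9-DL1, and the count stayed at 6 or 7 whichever library was left out. Prg2 reached 295 to 431 normalized counts in IkWT/OP9-DL1 as well, so that the transcripts were present in both groups.

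Markers of other blood and tissue cells are given for the whole of each list, since such cells could be carried through the isolation. Of 28 macrophage genes, 4 (14.3%) were overexpressed and 1 (3.57%) was downregulated, beside 5.72% and 2.23% of all genes (median 1.46). Mrc1, the mannose receptor, had 969, 4306 and 2034 in IkNull/OP9-DL1, against 195, 389.9 and 241 in IkWT/OP9-DL1 (log2 fold change 2.95 ± 0.51, limma adjusted p = 0.0149), and Cd5l, a secreted protein of tissue macrophages, was downregulated at 18.2, 15.1 and 20.1 in IkNull/OP9-DL1, against 48.5, 136 and 184 in IkWT/OP9-DL1 (log2 fold change −2.53 ± 0.50, limma adjusted p = 0.023). The summed macrophage level was 31917 to 70053 in IkNull/OP9-DL1 and 14317 to 23868 in IkWT/OP9-DL1, with no overlap. The count of overexpressed macrophage genes was 19, 0 and 2 without IkNull replicate 1, 2 and 3, and 1 without IkWT replicate 1 or 4. The call of Cd5l was lost without IkNull replicate 2 or 3 or IkWT replicate 3 or 4. The defining genes Csf1r and Emr1 were present in every library, at 853, 2441 and 1279 in IkNull/OP9-DL1, against 265, 698 and 568 in IkWT/OP9-DL1 for Csf1r, and at 206, 739.7 and 279 in IkNull/OP9-DL1, against 97.0, 259 and 235 in IkWT/OP9-DL1 for Emr1. The part of macrophages in the chemokine and interferon values was not tested.

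Of 16 neutrophil genes 2 (12.5%, beside 5.72% of all genes) were overexpressed, Mmp9 and Fcnb, and 0 downregulated (median 1.24). The summed neutrophil level was 26119 to 92454 in IkNull/OP9-DL1 and 7090 to 32031 in IkWT/OP9-DL1. The call of Fcnb was lost without IkNull replicate 2 or 3 or IkWT replicate 1 or 4, and that of Mmp9 when any library but IkWT replicate 3 was left out. Mast cell and basophil genes went both ways, with 3 of 15 (20%) overexpressed, Mcpt1, Srgn and Gata2, and 1 (6.67%), Il4, downregulated. Over all genes the shares were 5.72% and 2.23%. Mcpt1 had 278, 358 and 671 normalized counts in the IkNull/OP9-DL1 libraries, against 21.7, 44.0 and 135 in the IkWT/OP9-DL1 libraries, and Mcpt1, a mucosal mast cell protease, was higher in each IkNull library (log2 fold change 2.97 ± 0.63, limma adjusted p = 0.0282). The count of overexpressed mast cell genes was 0 without IkNull replicate 2, 5 without IkNull replicate 1 and 1 with libraries scaled to equal totals, while the call of Il4 held whichever library was left out. Kit, the stem cell factor receptor of mast cells, had 35.0, 140.4 and 191 in IkNull/OP9-DL1, against 25.8, 152 and 118 in IkWT/OP9-DL1 and a log2 fold change of 0.34 ± 0.79. Of 11 lymphoid genes 0 were overexpressed and 1 (9.09%, beside 2.23% of all genes) was downregulated, Cd247, the zeta chain of the T cell receptor. It had 1.3, 3.02 and 1.01 in IkNull/OP9-DL1, against 24.8, 12.1 and 9.05 in IkWT/OP9-DL1 (log2 fold change −2.51 ± 0.59, limma adjusted p = 0.0404). This call of few reads, with exons shared with Pou2f1 on the other strand, was lost when any library but IkNull replicate 1 was left out. Il7r, the interleukin 7 receptor chain, had 23.4, 122 and 191 in IkNull/OP9-DL1, against 4.13, 24.9 and 7.41 in IkWT/OP9-DL1 (limma adjusted p = 0.0664).

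Of 14 endothelial genes 4 (28.6%, beside 5.72% of all genes) were overexpressed and 0 downregulated (median 1.77). Kdr, the vascular endothelial growth factor receptor 2, had 1081, 998 and 464 in IkNull/OP9-DL1, against 64.0, 53.8 and 47.7 in IkWT/OP9-DL1, and Cdh5, the cadherin of vessel walls, had 136, 482 and 378 in IkNull/OP9-DL1, against 23.7, 14.46 and 6.58 in IkWT/OP9-DL1 (log2 fold change 3.83 ± 0.35, limma adjusted p = 0.00133 for Kdr, and log2 fold change 4.36 ± 0.58, limma adjusted p = 0.00556 for Cdh5). Neither gene overlapped between the groups. Tie1 and Tek, the angiopoietin receptor family, rose by 3.52 and 2.98. The count was 2 without IkNull replicate 2 and 8 without IkNull replicate 1, and the call of Tie1 was lost without IkNull replicate 2 and that of Tek when any library but IkNull replicate 1 was left out. Pecam1, Plvap and Stab2 were not called, at log2 fold changes of 1.84, 0.40 and −0.95. The summed endothelial level was 1660 to 2701 in IkNull/OP9-DL1 and 383 to 541 in IkWT/OP9-DL1.

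Of 18 hepatocyte genes 1 (5.56%) was overexpressed, near the 5.72% of all genes. This gene was Orm1, an acute-phase glycoprotein, at 86.9, 332 and 170.2 in IkNull/OP9-DL1, against 0, 3.47 and 4.11 in IkWT/OP9-DL1 (log2 fold change 5.91 ± 0.74, limma adjusted p = 0.00408). Afp and Alb, the abundant products of fetal hepatocytes, had log2 fold changes of 0.23 ± 0.38 and −0.14 ± 0.44, and the summed hepatocyte level overlapped, at 4249 to 11694 in IkNull/OP9-DL1 and 4006 to 7692 in IkWT/OP9-DL1. Of 29 stromal and matrix genes, 3 (10.3%, beside 5.72% of all genes) were overexpressed, Fn1, Lox and Lpl, and 0 downregulated. Fn1, the matrix protein fibronectin, had 2467, 1863 and 1903 in IkNull/OP9-DL1, against 776, 889 and 773 in IkWT/OP9-DL1 (log2 fold change 1.34 ± 0.20, limma adjusted p = 0.00855), while Col1a1 and Col1a2, the chains of type I collagen, had log2 fold changes of 0.59 and 0.85 without a call. The summed stromal level did not overlap, at 14097 to 16039 in IkNull/OP9-DL1 and 5543 to 8290 in IkWT/OP9-DL1, and the calls of Lox and Lpl were lost when any library but IkNull replicate 1 was left out, with TMM scaling and with libraries scaled to equal totals. The call of Fn1 was lost without IkWT replicate 4, which left 0 stromal genes called, and without IkNull replicate 1 the count was 6. Stromal reads could come from the OP9-DL1 layer, and their part was not tested.

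Of 17 stem and progenitor genes 4 (23.5%, beside 5.72% of all genes) were overexpressed and 0 downregulated, and the 4 are all transcription factors. Gata2, the GATA factor that GATA1 replaces as red cells mature, had 415, 313 and 127 in IkNull/OP9-DL1, against 32.0, 64.2 and 69.9 in IkWT/OP9-DL1 (log2 fold change 2.26 ± 0.49, limma adjusted p = 0.0315). Cebpa, the factor of granulocyte fate, had 228, 276 and 191 in IkNull/OP9-DL1, against 67.0, 82.1 and 81.5 in IkWT/OP9-DL1 (log2 fold change 1.57 ± 0.26, limma adjusted p = 0.013), Meis1, a homeobox factor of stem cells and megakaryocytes, had 33.7, 39.3 and 33.2 in IkNull/OP9-DL1, against 11.3, 9.83 and 9.87 in IkWT/OP9-DL1 (log2 fold change 1.68 ± 0.36, limma adjusted p = 0.0304), and Mycn, a MYC family factor, had 118, 72.5 and 56.4 in IkNull/OP9-DL1, against 19.6, 13.9 and 17.3 in IkWT/OP9-DL1 (log2 fold change 2.16 ± 0.39, limma adjusted p = 0.0164). No library of 1 group reached the other in these 4 genes. All 4 calls were lost without IkNull replicate 2 and without IkWT replicate 4, and 1 was left, that of Mycn, when libraries were scaled to equal totals.

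**Figure D4:**
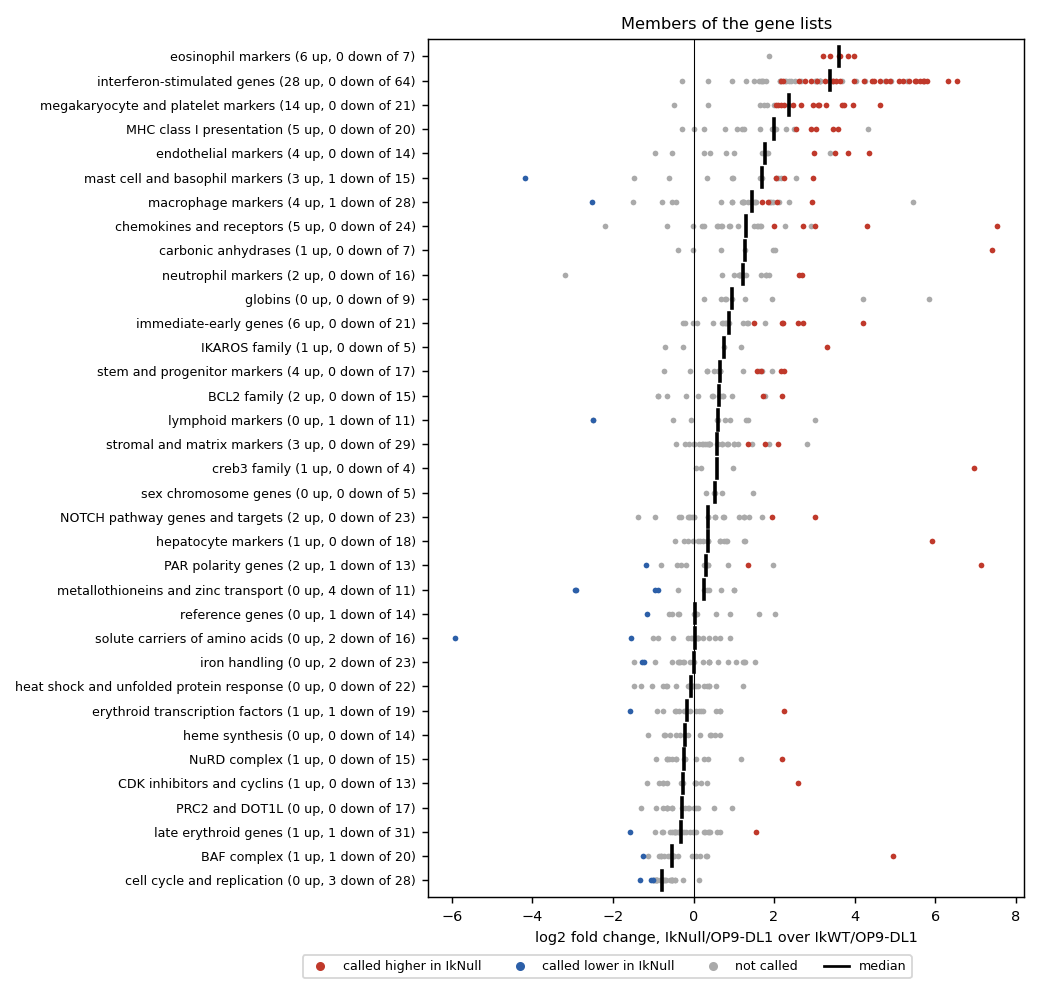
Log2 fold change of IkNull/OP9-DL1 over IkWT/OP9-DL1 (horizontal axis) for the tested members of 35 gene lists (1 row each, sorted by median, with the number called higher and lower beside its name), where red points are genes called higher, blue points genes called lower, grey points not called and the black bar is the median. The eosinophil, interferon and megakaryocyte lists stand at the top with medians of 3.62, 3.38 and 2.38, and the cell cycle list at the bottom with −0.78.

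Few genes of the red cell programme were called. Of 31 late erythroid genes 1 (3.23%) was overexpressed, Ube2l6, and 1 (3.23%) downregulated, Icam4, beside 5.72% and 2.23% of all genes. The median was −0.32. Icam4, the Landsteiner-Wiener blood group glycoprotein, had 1106, 457 and 715 in IkNull/OP9-DL1, against 3338, 1588 and 1814 in IkWT/OP9-DL1 (log2 fold change −1.58 ± 0.38, limma adjusted p = 0.0437), and both calls were lost when any library but IkNull replicate 1 was left out. Alas2, the first enzyme of erythroid heme synthesis, had 383566, 375270 and 226399 in IkNull/OP9-DL1, against 280803, 149625 and 193269 in IkWT/OP9-DL1, overlapping between the groups (log2 fold change 0.67 ± 0.53, limma adjusted p = 0.427), and Tfrc, the transferrin receptor, had 158322, 73140 and 122114 in IkNull/OP9-DL1, against 295169, 175138 and 201249 in IkWT/OP9-DL1 (log2 fold change −0.96 ± 0.49, limma adjusted p = 0.224). Of 14 heme synthesis genes 0 were called. With libraries scaled to equal totals, 1 late erythroid gene was higher and 4 were lower, and 3 heme genes were lower.

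Of 19 erythroid transcription factors 1 (5.26%) was overexpressed, Gata2, and 1 (5.26%) downregulated, E2f4, beside 5.72% and 2.23% of all genes. E2f4, which is needed for the expansion of fetal erythroid cells, had 2436, 1064 and 1644 in IkNull/OP9-DL1, against 5947, 4058 and 4630 in IkWT/OP9-DL1 (log2 fold change −1.57 ± 0.32, limma adjusted p = 0.0242), a call lost without IkNull replicate 2 or 3 or IkWT replicate 1 or 4. Gata1 and Klf1, the master regulators of the lineage, had 8192, 6110 and 6152 in IkNull/OP9-DL1, against 11413, 7555 and 8993 in IkWT/OP9-DL1 for Gata1, and 11373, 5995 and 6292 in IkNull/OP9-DL1, against 18877, 11098 and 13331 in IkWT/OP9-DL1 for Klf1, without a call. Of 23 iron genes 0 were higher and 2 lower (8.70%, beside 2.23% of all genes). Steap3, the ferrireductase of the transferrin cycle, had 1486, 1430 and 2256 in IkNull/OP9-DL1, against 4707, 3175 and 4533 in IkWT/OP9-DL1 (log2 fold change −1.27 ± 0.26, limma adjusted p = 0.0249), and Slc46a1, the heme and folate carrier, had 51.9, 43.8 and 45.3 in IkNull/OP9-DL1, against 119.7, 94.9 and 123 in IkWT/OP9-DL1 (log2 fold change −1.23 ± 0.28, limma adjusted p = 0.0347). Both groups were apart in these genes, and the call of Steap3 was lost without IkNull replicate 2 or IkWT replicate 1 or 4, and that of Slc46a1 when any library but IkNull replicate 1 was left out.

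None of 9 globin genes was called, although 9 of 9 had a log2 fold change above 0, with a median of 0.95. Hbb-bh1 had 315630, 15842 and 4043 normalized counts in the IkNull/OP9-DL1 libraries, against 451, 97.2 and 2346 in the IkWT/OP9-DL1 libraries. The IkNull libraries all lay above the IkWT libraries for Hbb-bh1, an embryonic beta-like globin, with replicate 1 far above the rest (log2 fold change 5.86 ± 1.60, limma adjusted p = 0.0595). Hbb-y, the embryonic epsilon-like globin, had 42927, 1845 and 1105 in IkNull/OP9-DL1, against 155, 145 and 598 in IkWT/OP9-DL1, with replicate 1 again the highest (log2 fold change 4.22 ± 1.25, limma adjusted p = 0.0735). Without IkNull replicate 1, 2 globin genes were called higher, and without IkNull replicate 3, 1 was. Hbb-b1, an adult beta globin, had 4065050, 4779080 and 2521560 in IkNull/OP9-DL1, against 2591900, 1564470 and 1689390 in IkWT/OP9-DL1, overlapping between the groups (log2 fold change 0.95 ± 1.12, limma adjusted p = 0.597). Its standard error rests in part on the trend over all genes, not on the spread of the Hbb-b1 libraries alone. With libraries scaled to equal totals 8 of the 9 globin genes were above 0, with a median of 0.65.

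Most genes of proliferation had fold changes below 0, but few passed the test. Of 28 cell cycle and replication genes, 27 had a log2 fold change below 0 and the median was −0.78. In 20 of them every IkNull library lay below every IkWT library, where 17.0% of all genes did so, but 3 were downregulated, Cdc6, Tk1 and E2f8, against 2.23% of all genes. E2f8, a repressive E2F factor, had 2678, 1153 and 1642 in IkNull/OP9-DL1, against 5486, 3935 and 3740 in IkWT/OP9-DL1 (log2 fold change −1.33 ± 0.32, limma adjusted p = 0.0437). Cdc6, which loads the replicative helicase, had 1788, 944 and 1419 in IkNull/OP9-DL1, against 2597, 2844 and 2632 in IkWT/OP9-DL1 (log2 fold change −1.01 ± 0.25, limma adjusted p = 0.0499967), and Tk1, the salvage thymidine kinase, had 1610, 830.3 and 1060 in IkNull/OP9-DL1, against 2611, 2266 and 2119 in IkWT/OP9-DL1 (log2 fold change −1.05 ± 0.27, limma adjusted p = 0.0499). The adjusted p of Cdc6 and Tk1 lies just inside the threshold, and exons of Tk1 overlap those of Afmid on the other strand. The count was 18 without IkNull replicate 1 and 0 without any other library, and 13 with libraries scaled to equal totals. Mki67, the proliferation antigen, had 94058, 76444 and 53967 in IkNull/OP9-DL1, against 110015, 53066 and 50397 in IkWT/OP9-DL1 and was the member above 0 (log2 fold change 0.13 ± 0.43, limma adjusted p = 0.864), and with libraries scaled to equal totals all 28 were below 0.

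Of 13 cyclins and inhibitors of cyclin-dependent kinases 1 (7.69%, beside 5.72% of all genes) was overexpressed, Cdkn2b, the inhibitor p15. It had 842, 347 and 123 in IkNull/OP9-DL1, against 75.3, 40.5 and 51.8 in IkWT/OP9-DL1 (log2 fold change 2.59 ± 0.63, limma adjusted p = 0.0432), and IkNull replicate 1 was the highest by a wide margin. The call of Cdkn2b was lost without IkNull replicate 2 or any 1 of the IkWT libraries. Cdkn1a had 16407, 26966 and 23451 normalized counts in the IkNull/OP9-DL1 libraries, against 11653, 7307 and 11224 in the IkWT/OP9-DL1 libraries. For Cdkn1a, which encodes the inhibitor P21 followed in the study by other means, each IkNull library lay above each IkWT library, and the test was just missed (log2 fold change 1.15 ± 0.30, limma adjusted p = 0.0544). It passed, among other settings, without IkNull replicate 1 and with TMM scaling. Of 15 genes of the BCL2 family, which set the threshold of cell death, 2 (13.3%, beside 5.72% of all genes) were overexpressed and 0 downregulated. Bcl2l2, the survival protein BCL-W, had 485, 391 and 511 in IkNull/OP9-DL1, against 112, 152 and 156 in IkWT/OP9-DL1 (log2 fold change 1.72 ± 0.24, limma adjusted p = 0.00648), a call that held whichever library was left out, and Bmf, a death-promoting member, had 50.6, 160.0 and 95.7 in IkNull/OP9-DL1, against 21.7, 19.7 and 17.3 in IkWT/OP9-DL1 (log2 fold change 2.18 ± 0.45, limma adjusted p = 0.0254), a call that did not hold when any library but IkNull replicate 1 was left out. Bcl2l1, the BCL-XL protein that protects late erythroblasts, had 32749, 46302 and 30700 in IkNull/OP9-DL1, against 33130, 14119 and 21878 in IkWT/OP9-DL1, overlapping between the groups (log2 fold change 0.73 ± 0.37, limma adjusted p = 0.227).

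Ikzf1, the deleted gene, had 2719, 2314 and 1721 in IkNull/OP9-DL1, against 2721, 2700 and 2599 in IkWT/OP9-DL1, with no call (log2 fold change −0.27 ± 0.22, limma adjusted p = 0.431). A count over the whole gene still reads the exons before the deletion, so that it does not check the genotype. Of the other 4 genes of its family Ikzf2, encoding HELIOS, was overexpressed at 61.0, 190.2 and 124 in IkNull/OP9-DL1, against 5.16, 14.46 and 14.8 in IkWT/OP9-DL1, with every IkNull library several-fold above every IkWT library (log2 fold change 3.31 ± 0.55, limma adjusted p = 0.0132), a call lost without IkNull replicate 2. It was the 1 gene called of the 5 family genes tested (20%, beside 5.72% of all genes called higher). Ikzf5, encoding PEGASUS, had a log2 fold change of −0.72 ± 0.24 without a call.

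Of 23 NOTCH pathway genes and targets, 2 were overexpressed and 0 downregulated, a share of 8.70% near the 5.72% of all genes called higher, and the median was 0.36. Maml3 had 1617, 1786 and 1408 normalized counts in the IkNull/OP9-DL1 libraries, against 296, 122 and 208 in the IkWT/OP9-DL1 libraries. Maml3, a Mastermind coactivator of the NOTCH complex, was several-fold apart between the nearest libraries (log2 fold change 3.02 ± 0.32, limma adjusted p = 0.00223), and was called in every fit that left out 1 library. Notch3, a receptor, had 71.4, 139 and 138 in IkNull/OP9-DL1, against 15.5, 37.6 and 37.0 in IkWT/OP9-DL1 (log2 fold change 1.95 ± 0.45, limma adjusted p = 0.0379), a call lost when any library but IkNull replicate 1 was left out and with libraries scaled to equal totals. Notch1, the receptor best known in T cells, had 74.0, 217 and 109 in IkNull/OP9-DL1, against 23.7, 82.1 and 63.4 in IkWT/OP9-DL1, overlapping (log2 fold change 1.25 ± 0.55, limma adjusted p = 0.17).

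The classical targets did not pass. Hes1, a repressor switched on by NOTCH, had 24.7, 24.2 and 39.3 in IkNull/OP9-DL1, against 19.6, 55.0 and 29.6 in IkWT/OP9-DL1 (log2 fold change −0.15 ± 0.46, limma adjusted p = 0.857), and its direction changed without IkWT replicate 3. Nrarp, a feedback inhibitor of NOTCH, had 45.4, 40.8 and 57.4 in IkNull/OP9-DL1, against 70.1, 117 and 97.9 in IkWT/OP9-DL1, with every IkNull library below every IkWT library (log2 fold change −0.96 ± 0.32, limma adjusted p = 0.0985). Hey2 had 26.0, 21.1 and 27.2 in IkNull/OP9-DL1, against 86.6, 45.7 and 71.6 in IkWT/OP9-DL1 (limma adjusted p = 0.0536), and Myc, a target in lymphoid cells, had 667, 468 and 848 in IkNull/OP9-DL1, against 342, 569 and 448 in IkWT/OP9-DL1 (log2 fold change 0.53 ± 0.29, limma adjusted p = 0.253). Of other genes that the study followed by quantitative PCR or chromatin immunoprecipitation, Prdm16, a zinc-finger methyltransferase of stem cells, was downregulated at 7.79, 6.04 and 6.04 in IkNull/OP9-DL1, against 83.6, 41.1 and 23.9 in IkWT/OP9-DL1 (log2 fold change −2.56 ± 0.51, limma adjusted p = 0.0241), and Zfp446, a zinc-finger gene, was overexpressed at 148, 222 and 198 in IkNull/OP9-DL1, against 48.5, 76.9 and 65.0 in IkWT/OP9-DL1 (log2 fold change 1.57 ± 0.30, limma adjusted p = 0.0199). Both calls were lost without IkNull replicate 2 or 3, that of Prdm16 also without IkWT replicate 1 or 3, and that of Zfp446 without IkWT replicate 4. Mmp23, a metalloproteinase, had 14.3, 12.1 and 18.1 in IkNull/OP9-DL1, against 14.4, 19.1 and 16.5 in IkWT/OP9-DL1 (log2 fold change −0.17 ± 0.40, limma adjusted p = 0.806).

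Of the chromatin complexes that IKAROS works with, single subunits were called, at 6.67% of NuRD genes higher and 5% of BAF genes in each direction, beside 5.72% higher and 2.23% lower over all genes. Of 15 NuRD genes 1 was overexpressed, Chd5, the remodelling ATPase of neurons and testis, at 72.7, 43.8 and 95.7 in IkNull/OP9-DL1, against 18.6, 9.83 and 14.8 in IkWT/OP9-DL1 (log2 fold change 2.19 ± 0.43, limma adjusted p = 0.0216), while Chd4, the main ATPase in blood cells, had 3281, 2740 and 2344 in IkNull/OP9-DL1, against 2562, 2849 and 2490 in IkWT/OP9-DL1 (log2 fold change 0.07 ± 0.20, limma adjusted p = 0.842). Of 20 BAF genes 1 was overexpressed, Actl6b, and 1 downregulated, Smarce1, the subunit BAF57, at 1395, 722 and 949.9 in IkNull/OP9-DL1, against 3309, 1896 and 2124 in IkWT/OP9-DL1 (log2 fold change −1.27 ± 0.31, limma adjusted p = 0.0437), and the median was −0.52, with Actl6b at its bound as well. Actl6a, the counterpart of Actl6b outside neurons, had 838, 439 and 713 in IkNull/OP9-DL1, against 1106, 1218 and 1166 in IkWT/OP9-DL1, and the groups did not overlap (limma adjusted p = 0.0792). Of 17 genes of PRC2 and DOT1L, which write repressive and elongation marks on histone H3, 0 were called. In 10 of 20 BAF genes every IkNull library lay below every IkWT library, and in 2 above, where 17.0% and 17.2% of all genes did so. For NuRD the counts were 5 and 2 of 15, and for PRC2 and DOT1L 5 and 0 of 17. The summed BAF level did not overlap, at 15835 to 25953 in IkNull/OP9-DL1 and 26065 to 33108 in IkWT/OP9-DL1, while the summed NuRD level did. The call of Chd5 was lost without IkNull replicate 2 or 3 or IkWT replicate 3 or 4, that of Smarce1 when any library but IkNull replicate 1 was left out, and that of Actl6b in no fit that left out 1 library.

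Of 21 immediate-early genes, which answer stimuli within minutes without new protein, 6 (28.6%, beside 5.72% of all genes) were overexpressed and 0 downregulated (median 0.89). The 6 were Nr4a1, Nr4a2, Nr4a3, Zfp36, Fosl2 and Ier3. Nr4a2, an orphan nuclear receptor, had 437, 313 and 86.6 in IkNull/OP9-DL1, against 15.5, 11.6 and 8.23 in IkWT/OP9-DL1 (log2 fold change 4.21 ± 0.59, limma adjusted p = 0.00682), Nr4a3 had 27.3, 27.2 and 27.2 in IkNull/OP9-DL1, against 2.06, 6.94 and 3.29 in IkWT/OP9-DL1 (log2 fold change 2.58 ± 0.50, limma adjusted p = 0.0206), and Zfp36, which hastens decay of cytokine mRNAs, had 2946, 7283 and 6868 in IkNull/OP9-DL1, against 1438, 1000 and 1016 in IkWT/OP9-DL1 (log2 fold change 2.22 ± 0.36, limma adjusted p = 0.0126). The groups were apart in each. Fos and Jund, subunits of AP-1, had log2 fold changes of −0.22 and −0.03 without a call. The count was 9, 0 and 2 without IkNull replicate 1, 2 and 3, and 3 without IkWT replicate 4. Of 22 genes of heat shock and the unfolded protein response 0 were called, and Ddit3, the factor CHOP, had 8789, 4482 and 8728 in IkNull/OP9-DL1, against 27761, 12880 and 20915 in IkWT/OP9-DL1 (limma adjusted p = 0.0513). Of 14 reference genes often used to scale quantitative PCR, 0 were higher and 1 was lower (7.14%, beside 2.23% of all genes). This was Hprt, a purine salvage enzyme, at 1135, 661 and 720.2 in IkNull/OP9-DL1, against 1736, 1933 and 1767 in IkWT/OP9-DL1 (log2 fold change −1.15 ± 0.24, limma adjusted p = 0.0278). Its call was lost when any library but IkNull replicate 1 was left out. Actb and Rplp0 had log2 fold changes of 0.06 ± 0.24 and 0.00 ± 0.33.

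Whether the genotype difference on OP9-DL1 departed from that on OP9 was asked by the interaction of genotype and stroma over all 12 libraries. Of 13769 genes 0 passed an adjusted p under 0.05 in limma, with 59 at an unadjusted p under 0.05. The same replicate numbers stand on both stromas, and the labels do not say what samples of 1 number share. With samples of the same genotype and number as a block, 0 passed, with 1213 at an unadjusted p under 0.05 and a smallest adjusted p of 0.0519. That value belonged to Ly6e, which differed by 4.22 ± 0.47 on OP9-DL1 and by 3.49 ± 0.47 on OP9. The widest departures among the named genes were those of Mcpt1, at 2.97 ± 0.63 on OP9-DL1 and 5.78 ± 0.61 on OP9 (difference −2.80 ± 0.95), of Cd247, at −2.51 ± 0.59 and −0.45 ± 0.58 (difference −2.06 ± 0.79), and of Cdh5, at 4.36 ± 0.58 and 6.27 ± 0.64 (difference −1.91 ± 0.97). None of the 3 passed the interaction test, which does not show that their differences were alike on the 2 stromas.

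The values on both stromas are set side by side for the leading genes. Pard3 differed by 7.13 ± 0.20 on OP9-DL1 and by 6.90 ± 0.30 on OP9, Creb3l1 by 6.96 ± 0.48 and 7.05 ± 0.46, Mt1 by −2.91 ± 0.26 and −2.91 ± 0.31, and Slc6a20a by −5.91 ± 0.45 and −5.26 ± 0.56. Maml3 differed by 3.02 ± 0.32 and 2.81 ± 0.28. The interferon pattern within IkNull was also seen on OP9, where the summed level of the 65 interferon genes in the table was 96058, 572029 and 1237390 normalized counts in IkNull/OP9 replicates 1, 2 and 3, against 111655, 95896 and 92407 in IkWT/OP9 replicates 1, 3 and 4. On OP9-DL1 it was 123687, 865504 and 1178350 in IkNull, against 92933, 130955 and 93406 in IkWT. Since samples of the same number deviated together on both stromas, the OP9 values are not independent of those on OP9-DL1.

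**Figure D5:**
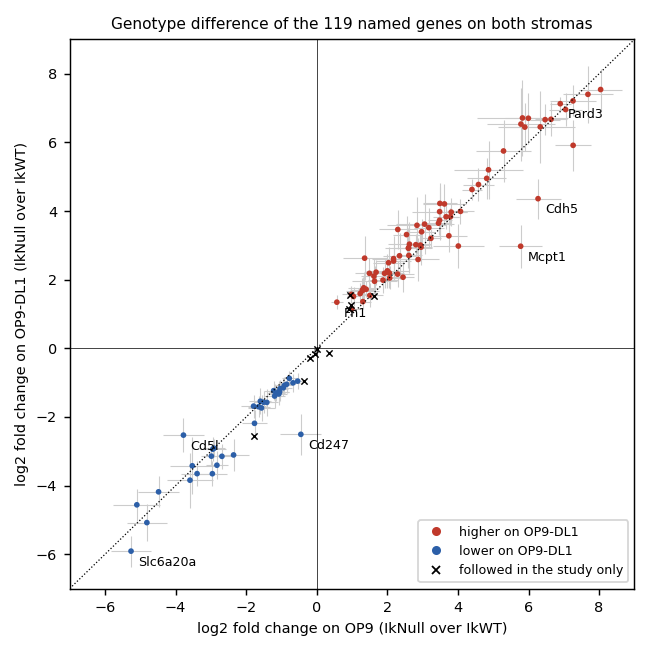
Log2 fold change of IkNull over IkWT on OP9-DL1 (vertical axis) against that on OP9 (horizontal axis) for 119 named genes, with standard errors as grey lines and the dotted line at equal values, where red genes were called higher and blue genes lower on OP9-DL1 and crosses are genes named only because the study followed them. Most points lie along the dotted line, and Cdh5, Mcpt1 and Cd247 lie farthest from it.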

How the data were processed

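RNA from Ter119+ cells was converted to oligo-dT TruSeq libraries and sequenced on a HiSeq2000. The authors aligned the reads untrimmed to GRCm38 with TopHat and counted them per gene with HTSeq, and the submitters' processing notes name TopHat2 2.0.9, HTSeq 0.5.3, CASAVA 1.8 and DESeq2 1.0.19. For the strand setting and the annotation release, the sources used here give nothing. The deposited values are a signal of counts divided by size factors by the authors. All nonzero values were whole multiples of 1 step per library (100%, tolerance 0.01), which gave back the reads. In IkNull/OP9-DL1 replicate 3 the step lies so close to 1 that wholeness checks little, and its reads were left out of count tests. Files with only the authors' own fold changes, p-values and group means were not used.

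The 6 OP9-DL1 libraries were compared in R 4.3.3 with limma 3.58.1 (empirical Bayes with trend) on log2(value + 1), after a minimum mean of 5. Genes were called at an adjusted p (Benjamini-Hochberg) under 0.05 where the log2 fold change was 0.8 or more in either direction. With 3 against 3 an exact permutation test cannot go below p = 0.1, so that p-values rest on the model. Alternatives were another pseudocount (0.5, 5), filter (none, 20), another scaling, no trend, all 12 libraries, blocks, each library left out, and edgeR 4.0.16 and DESeq2 1.42.0 on the recovered reads of 5 libraries. The scripts were tested on simulated data. Samples of 1 genotype and number on both stromas deviated together (r = 0.58 to 0.83), against −0.70 to 0.20 for other numbers. They were therefore fitted as 1 block in the second interaction fit, although the labels name no shared culture.

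Genes were named by rule: the 12 largest rises and falls among called genes averaging 50 or more without overlap, the 10 largest gains and losses in normalized counts, up to 4 called members per list with the smallest adjusted p, defining members of lists, and genes the study followed otherwise. Further called members named beside a list's count were chosen after their values were seen. Members and lists were chosen with earlier results of these data known. Some genes and a list are not reported here. Positions and exon overlaps come from GENCODE vM21 (GRCm38), and promoter sequences from RefSeq (GRCm38.p6).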

Additional observations from a re-analysis of the deposited data

How the results depend on the processing

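Of 111 named called genes, none changed direction under any setting run. Calls kept were 111 with 12 libraries, 108 with TMM scaling, 91 at equal totals, 77 without the trend, 61 with edgeR and 105 with DESeq2, and 38 were called in every fit that left out 1 library. The 786 overexpressed genes became 485 at equal totals and 1308 with 12 libraries. They became 1344 with samples of 1 genotype and number as a random block, and 2146 with 12 libraries and numbers as blocks. On 5 libraries they were 423 with edgeR and 1122 with DESeq2. The 306 downregulated genes became 711 at equal totals, 504 at equal totals without globins and 646 with 12 libraries. They became 648 with samples of 1 genotype and number as a random block, 740 with 12 libraries and numbers as blocks, and 183 without the trend. On 5 libraries they were 117 with edgeR and 374 with DESeq2. The cause of these shifts was not tested. Leaving out 1 library gave from 171 to 1757 overexpressed and from 52 to 1033 downregulated genes.

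Replicate numbers 1 and 3 occur in both genotypes on OP9-DL1, with correlations of deviations of 0.48 and 0.37, against −0.43 to 0.23 for other pairs. With fewer than 3 such pairs and no label of shared litters they were not treated as paired. The replicate block gave 840 higher and 196 lower genes, of which 568 and 162 were among the calls without it. Of the named genes without a call, Cxcl1 and Hes1 changed direction. Cxcl1 was at 0.24 with the replicate block, 0.27 with the block and 12 libraries, and −0.40 to 0.36 over the fits without 1 library, and Hes1 at −0.48 to 0.24 over those fits. Genes with few reads in IkWT/OP9-DL1, such as Ccl8, Car4 and Actl6b, have folds limited by depth.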
